A study of Saccharomyces cerevisiae with 9 samples.

Results

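The interior of the 18S rRNA gene is described here as read by RNA polymerase I (Pol I) in growing Saccharomyces cerevisiae. It was taken as the 1800 positions annotated as 18S in the 35S repeat without the 30 nucleotides (nt) at each end, which left 1740 of the 6858 positions of the repeat. In the numbering used here, where nucleotide 1 is the 5′ end of 18S, it runs from nucleotide 31 to 1770. The stretch lies on chromosome XII of the R64 assembly, chrXII:465100-466839 on the minus strand, inside RDN18-2, where 0 of its bases were other than in the deposited tables. R64 contains 2 identical copies of it, and a read cannot be assigned to any single copy of the gene in the cells. The cut at each end is by position and not by level. The median over the 9 libraries was 152 RPM (reads per 1000000 reads on the repeat) at nucleotide 30 just outside and 218 RPM at nucleotide 31 just inside, and it was 78.4 RPM at nucleotide 1770 just inside and 47.0 RPM at nucleotide 1771 just outside.

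18S rRNA is the RNA of the small (40S) ribosomal subunit. Pol I makes it as part of one long precursor that also holds 5.8S and 25S rRNA, with the 18S sequence between external transcribed spacer 1 (ETS 1), which is transcribed before it, and internal transcribed spacer 1 (ITS 1), and nucleases later release it. Mature 18S is among the most abundant RNAs of the cell, and native elongating transcript sequencing (NET-seq), which reads the last nucleotide of RNA recovered with the polymerase, cannot tell a nascent 3′ end inside 18S from an end of a fragment of mature 18S. All levels below are therefore levels of RNA 3′ ends, and the part of them that is mature rRNA was not tested.

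All libraries came from one wild-type strain of mating type MATa with the alleles ade2-1, ura3-1 and trp1-1, together with his3-11, can1-100 and a mutant allele of leu2. Its second-largest Pol I subunit is tagged as RPA135-(HA)3-(His)7::TRP1, through which the polymerase was pulled down. Cells were grown in the rich medium YPD at 30 °C and harvested at rising culture density as the early, mid and late subphases of logarithmic growth, each with 3 biological replicates and no further treatment. Reads recovered per library over the repeat ranged from 350940 in early log replicate 3 to 7307420 in mid log replicate 2, and 112671 to 1883090 of these fell in the 18S interior. No interior position was at 0 in any library. The median interior position held 47 reads in the shallowest library, whose exact Poisson 95% interval of 98.4 to 178 RPM covers counting error only, and 798 reads in the deepest. Early log replicates 2 and 3 shared 1 sequencing run, the mid log libraries another, and early log replicate 1 was sequenced with the late log libraries. Differences between mid log and the other subphases therefore cannot be told apart from the run, whereas early log replicate 1 can be set against late log within a run.

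The positions with the highest mean level over the 9 libraries are shown first. The lines below give the deposited RNA sequence, 5′ to 3′, of the 20 nt to each side of the 10 highest positions in descending order, leaving out any within 10 nt of a higher one. The capital marks the nucleotide read as the RNA 3′ end, and what follows it had not yet been copied if the end was nascent. Coordinates are of R64, minus strand.
nucleotide 472, chrXII:466378-466418: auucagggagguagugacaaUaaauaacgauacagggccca
nucleotide 852, chrXII:465998-466038: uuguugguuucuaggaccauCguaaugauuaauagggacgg
nucleotide 145, chrXII:466705-466745: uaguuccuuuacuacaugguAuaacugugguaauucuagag
nucleotide 791, chrXII:466059-466099: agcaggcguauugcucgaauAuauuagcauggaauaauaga
nucleotide 905, chrXII:465945-465985: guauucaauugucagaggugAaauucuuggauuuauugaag
nucleotide 931, chrXII:465919-465959: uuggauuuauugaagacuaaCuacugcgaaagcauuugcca
nucleotide 1238, chrXII:465612-465652: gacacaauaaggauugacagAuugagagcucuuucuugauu
nucleotide 752, chrXII:466098-466138: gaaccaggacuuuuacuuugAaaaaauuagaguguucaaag
nucleotide 601, chrXII:466249-466289: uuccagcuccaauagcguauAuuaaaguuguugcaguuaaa
nucleotide 803, chrXII:466047-466087: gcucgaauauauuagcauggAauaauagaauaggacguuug
Of these 10 ends, 7 were A, 2 were C, 1 was U and 0 were G, whereas the interior consists of 27.0% A, 19.3% C, 25.5% G and 28.3% U.

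The second set shows 6 of the positions named below for a large change between subphases, by the same layout. They are a selection, and other positions named below changed more than some of them.
nucleotide 1067, chrXII:465783-465823: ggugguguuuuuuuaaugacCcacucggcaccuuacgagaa
nucleotide 1273, chrXII:465577-465617: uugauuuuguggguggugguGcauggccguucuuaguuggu
nucleotide 929, chrXII:465921-465961: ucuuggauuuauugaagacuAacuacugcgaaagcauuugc
nucleotide 663, chrXII:466187-466227: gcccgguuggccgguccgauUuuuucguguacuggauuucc
nucleotide 1199, chrXII:465651-465691: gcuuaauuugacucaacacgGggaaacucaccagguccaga
nucleotide 421, chrXII:466429-466469: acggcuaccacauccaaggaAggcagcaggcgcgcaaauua
Nucleotides 1067, 1273 and 663 rose from early to mid log, and 929 rose to late log, whereas 1199 and 421 fell from early log to late log. Their values are given with the comparisons.

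The first question was how much of the reads on the repeat lay in the 18S interior in each subphase. In early log it amounted to 30.7% ± 2.15 (SD, n = 3), then to 25.5% ± 1.03 at mid and 26.1% ± 0.642 at late log. The early log libraries stood at 28.2%, 31.8% and 32.1%, the mid log libraries at 26.4%, 25.8% and 24.4%, and the late log libraries at 25.5%, 26.8% and 26.1%. Every early log library was above every later one, and mid and late log overlapped. The Wilson 95% intervals of single libraries, which again cover counting error only, spanned at most 32.0% to 32.3% in early log replicate 3. On the log2 share, the 3 subphases differed (exact permutation test of F over all assignments of the 9 libraries, p = 0.0179, 0.0298 after adjustment over the 5 such tests made). Early log exceeded mid log by 0.27 and late log by 0.23 on this scale, where the exact two-sided test of 3 against 3 libraries gives p = 0.10, the smallest it allows. Without mid log replicate 2 or 3 or any 1 of the late log libraries, the exact permutation p of F was 0.05 to 0.0714 and the call was lost. Within the shared run, early log replicate 1 at 28.2% lay above the 3 late log libraries. The share rests on the denominator. Taken over the reads of the 4 spacers, the log2 value of the interior differed among the 3 subphases (exact permutation test of F, p = 0.0429). Its mean was then lowest at early log and highest at late log. The mean level of ETS 1 without its ends was 59.7 ± 20.5 RPM at early log, 23.8 ± 24.3 at mid and 10.8 ± 2.96 at late log. The mid log libraries spanned 8.68 to 51.9 RPM there and overlapped the early log range of 38.9 to 79.9 RPM.

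The other long mature region, the 25S interior, did not move in the same way. Since each library is scaled to a fixed sum, the levels of these regions are not independent of each other. The mean level per position was 176 ± 12.3, 147 ± 5.93 and 150 ± 3.69 RPM in the 18S interior of early, mid and late log (SD, n = 3), and 171 ± 11.7, 178 ± 4.72 and 187 ± 2.54 RPM in the 25S interior. The ratio of 18S to 25S was 0.881, 1.12 and 1.11 in the early log libraries, 0.876, 0.827 and 0.768 in mid log, and 0.773, 0.832 and 0.807 in late log. Its log2 value differed among the subphases (exact permutation test of F, p = 0.0357, adjusted p = 0.0446). Early log replicate 1 was lower than the other early log libraries and close to the highest mid log library. The call was lost when mid log replicate 1 or 2 or any late log library was left out, with exact permutation p between 0.0607 and 0.0821.

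The profile in 100 nt windows held 4 maxima, at 131 to 230, 531 to 630, 831 to 930 and 1231 to 1330, and a low 3′ end. The second and the last maximum were present in all 9 libraries. Early log replicate 2 was slightly higher in window 31 to 130 than in the next, at 212 against 208 RPM, and early log replicate 1 was higher in 931 to 1030 than in 831 to 930, at 201 against 194 RPM. The 17 windows ranged over 3.19-fold in their mean level. The 3 highest were 531 to 630 with 316 ± 21.2, 221 ± 12.9 and 226 ± 6.32 RPM in early, mid and late log, 831 to 930 with 224 ± 26.0, 241 ± 9.94 and 261 ± 10.2 RPM, and 1231 to 1330 with 239 ± 42.3, 198 ± 6.60 and 221 ± 15.8 RPM. The 3 lowest all lay near the 3′ end. Window 1531 to 1630 held 96.2 ± 3.18, 81.9 ± 3.62 and 60.9 ± 0.979 RPM, window 1431 to 1530 held 112 ± 7.64, 78.7 ± 5.15 and 56.7 ± 2.38 RPM, and window 1331 to 1430 held 108 ± 9.84, 90.2 ± 7.19 and 80.3 ± 6.42 RPM. The highest window of a library was 531 to 630 in each early log library and 831 to 930 in each mid and late log library. The lowest was 1531 to 1630 in early log and 1431 to 1530 in mid and late log. The highest stood 3.16 to 3.52 times over the lowest in early log, 2.87 to 3.18 times in mid log and 4.37 to 4.98 times in late log.

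**Figure D1:**
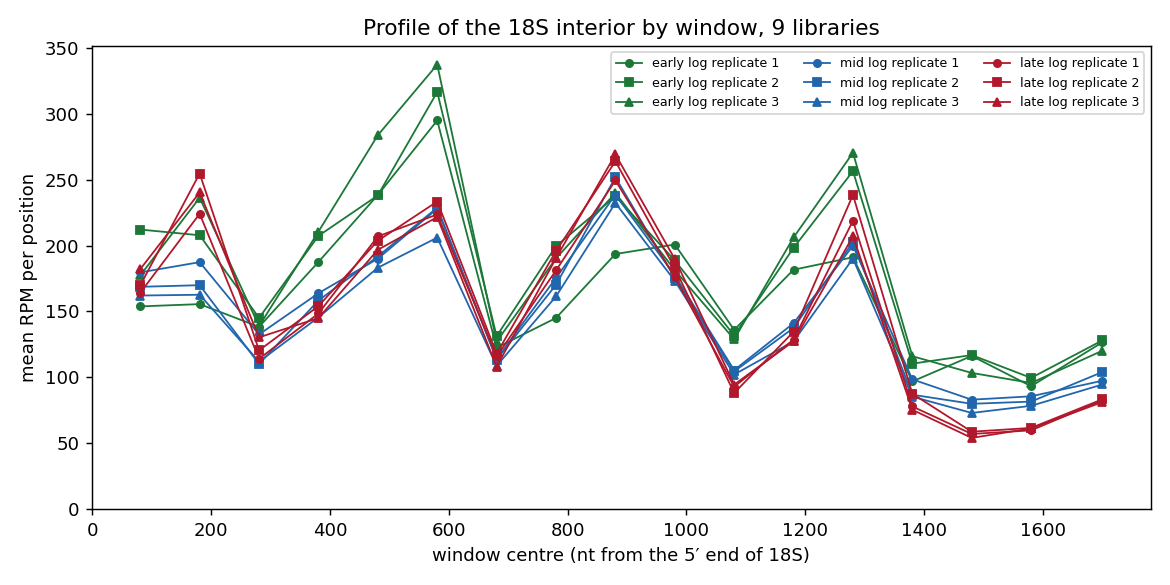
Mean RPM per position of the 17 windows of the 18S interior against the window centre in nt from the 5′ end of 18S, one line for each of the 9 libraries, coloured by subphase. All lines share the maxima at 531 to 630 and 1231 to 1330 and the low 3′ end, and over window 531 to 630 the early log libraries lie at 295 to 337 RPM, above the 206 to 233 RPM of the others.

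Window level went with base composition, as a description across the 17 windows, which share their libraries. Spearman's rho of level with GC content was -0.36 to -0.45 in the early log libraries, -0.54 to -0.60 in mid log and -0.62 to -0.65 in late log. With the content of A it was 0.37 to 0.53 over all 9 libraries. The window richest in GC, 1431 to 1530 with 58.0%, was the lowest window of every mid and late log library, and the poorest, 131 to 230 with 31.0%, was among those with the highest level in late log.

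The slope of the profile, fitted by least squares to the log2 window means, was steeper in late log. It was -0.40, -0.52 and -0.56 log2 units per kb in the early log libraries, -0.60, -0.54 and -0.56 in mid log, and -0.85, -0.86 and -0.93 in late log. The subphases differed (exact permutation test of F, p = 0.00714, adjusted p = 0.0179). All late log libraries were steeper than all others, including early log replicate 1 of the same run, whereas early and mid log overlapped (exact permutation p = 0.20). A straight line described the profile in part only, with r squared of 0.206 to 0.430. The decline lay at the 3′ end. Over the first 13 windows, to nucleotide 1330, the slope was 0.03 ± 0.05, -0.02 ± 0.07 and -0.14 ± 0.05 log2 units per kb (SD, n = 3), so these windows were nearly level in early and mid log. The last 4 windows, which make up 25.3% of the interior, held 16.0% ± 1.04 of its reads in early log, 15.3% ± 0.0815 in mid and 11.98% ± 0.259 in late log. The mean level there was 0.565 ± 0.0439 of that in the other windows in early log, 0.532 ± 0.00335 in mid and 0.402 ± 0.00984 in late log. This division into 13 and 4 windows was chosen after the profile was seen, and no test is given for it beside the slope.

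The fall from 5′ to 3′ was steeper in the 18S interior than in either segment of the 25S interior, which was cut at its midpoint. In the 5′ segment of 25S the slope was -0.18 ± 0.07, -0.17 ± 0.05 and -0.39 ± 0.05 log2 units per kb in early, mid and late log, and in the 3′ segment it was 0.10 ± 0.08, 0.25 ± 0.02 and 0.25 ± 0.04. The slope of the 18S interior lay below that of the 5′ segment by 0.32 ± 0.01, 0.40 ± 0.05 and 0.49 ± 0.06, and this gap differed among the subphases (exact permutation test of F, p = 0.0107, 0.0214 after adjustment over 4 tests). The gap to the 3′ segment was 0.59 ± 0.14, 0.82 ± 0.01 and 1.12 ± 0.06, and it differed as well (exact permutation p = 0.00357, the smallest the design allows, adjusted p = 0.0143).

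**Figure D2:**
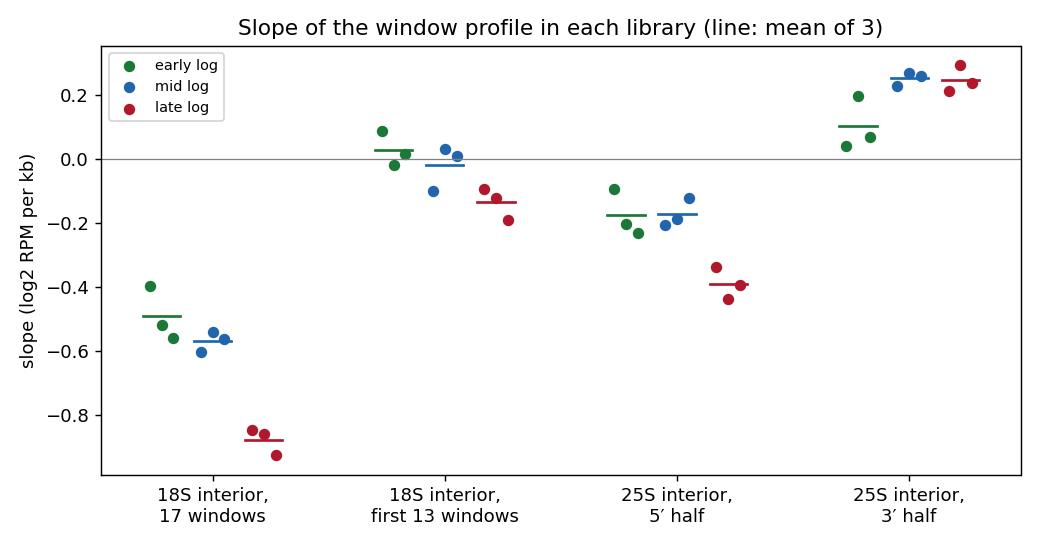
Slope of the log2 window profile, in log2 RPM per kb, in each of the 9 libraries (points) with the mean of the 3 libraries of a subphase (line), for the whole 18S interior, its first 13 windows and the 5′ and 3′ segments of the 25S interior. The late log points of the 18S interior lie at -0.85 to -0.93, below all others, and those of its first 13 windows lie at -0.09 to -0.19.

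Windows were then compared between pairs of subphases with limma on log2(mean RPM + 1), fitted to all windows of the repeat. From early to mid log, 7 of the 17 interior windows fell and 0 rose, where 12.5% of the windows of the repeat were called lower and 3.12% higher. The falls were in 331 to 630, 1031 to 1230, 1431 to 1530 and 1631 to 1770. In 3 windows the adjusted p was equally the smallest, 1131 to 1230, which changed by -0.53 ± 0.08 (SE) on the log2 scale, 531 to 630 by -0.51 ± 0.08 and 1031 to 1130 by -0.34 ± 0.05 (limma, adjusted p = 0.0174 for all). Window 531 to 630 had 295, 316 and 337 RPM in early log and 228, 229 and 206 RPM in mid log, without overlap. In limma, 0 of the 17 windows were called without early log replicate 2, mid log replicate 2 or mid log replicate 3, where 8, 7 and 8 had an unadjusted p under 0.05, against 11 with all libraries, and with each library scaled to its interior sum 1 window rose and 2 fell.

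From mid to late log, 4 windows fell and 1 rose, beside 20.6% of all windows lower and 17.5% higher. Windows 1531 to 1630 and 1431 to 1530 changed by -0.42 ± 0.05 and -0.47 ± 0.06 (SE; limma, adjusted p = 0.00296 and 0.00446). The other falls were smaller, in 1031 to 1130 and 1631 to 1770. The window that rose was 131 to 230, by 0.47 ± 0.08 (limma, adjusted p = 0.00839). It held 187, 170 and 163 RPM in the mid log libraries and 224, 255 and 240 RPM in late log, and its early log values of 156, 208 and 236 RPM overlapped both. With the median log ratio of the repeat set to 0, 2 windows rose and 3 fell, and without late log replicate 3 the called windows were 3 in place of 5.

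From early to late log, 10 windows fell and 0 rose, where 43.8% of all windows were lower and 17.2% higher. The 3 largest falls lay near the 3′ end, but the fall did not grow evenly along the interior. Window 1431 to 1530 changed by -0.97 ± 0.08, 1531 to 1630 by -0.65 ± 0.06 and 1631 to 1770 by -0.59 ± 0.06 (SE; limma, adjusted p = 0.000608 for all). Window 1131 to 1230 changed almost as much as the last of these, by -0.58 ± 0.07, whereas 1331 to 1430 changed by -0.42 ± 0.10 (limma, adjusted p = 0.000948 and 0.00989). Window 1431 to 1530 held 116, 117 and 103 RPM in early log, 83.1, 80.0 and 73.0 RPM in mid log and 57.1, 58.8 and 54.1 RPM in late log, so that the 3 subphases were separate. Which of the smaller changes were called rested on the scaling. With each library scaled to its interior sum, 3 windows rose and 7 fell, and with the median log ratio set to 0, 2 rose and 8 fell. With the sequencing run as a term, 3 rose and 7 fell. Early log replicates 2 and 3 are alone on their run, so this contrast rests on early log replicate 1 alone against the 3 late log libraries, and that library is assumed to vary like the others.

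**Figure D3:**
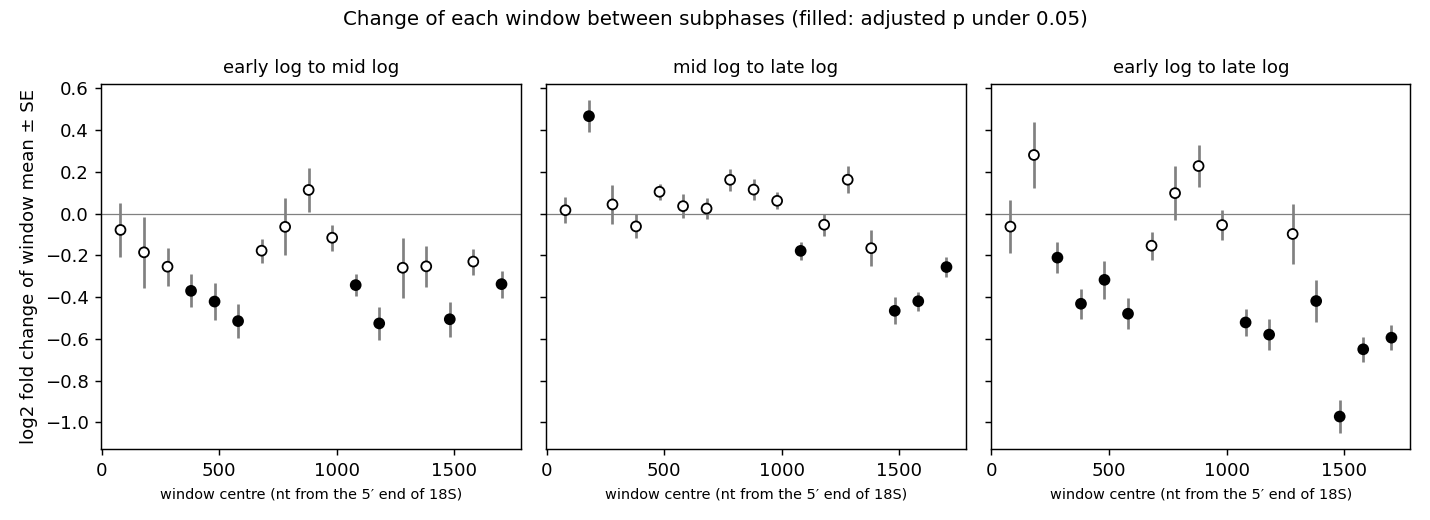
Change of each window between 2 subphases, as the log2 fold change of the window mean with its SE from limma, against the window centre in nt from the 5′ end of 18S, for the 3 pairs. Filled points had an adjusted p under 0.05, and the lowest filled point, -0.97 at window 1431 to 1530, is in the panel of early against late log.

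Single positions were tested in the same way, on log2(RPM + 1), and all 1740 interior positions passed the filter of a mean of 1 RPM. From early to mid log, 65 interior positions were called higher and 345 lower, 3.74% and 19.8% of those tested, beside 6.48% and 12.7% of all positions of the repeat. From mid to late log, 331 were higher and 459 lower, 19.0% and 26.4%, beside 16.6% and 22.2% of all positions. From early to late log, 138 were higher and 708 lower, 7.93% and 40.7%, beside 12.5% and 35.7% of all positions. The median change of all positions tested was -0.27, -0.14 and -0.44 in the 3 pairs, and that of the interior was -0.35, -0.07 and -0.46. Set against that median, the early to late log counts were 323 higher and 333 lower, and with the sequencing run as a term, where early log replicate 1 is again the only early log library in the contrast, they were 261 and 529. The early to mid log counts were 107 and 177 against the median. In limma they came to 0 calls without mid log replicate 2 and to 3 without mid log replicate 3, where 503 and 479 positions had an unadjusted p under 0.05, to 181 without early log replicate 2 and to 203 without early log replicate 3. The early to late log calls, 846 in all, came to 550 without late log replicate 3.

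The called positions were spread unevenly over the windows. From early to late log, 75 of the 100 positions of window 1431 to 1530 were lower and 0 higher, and 70 were lower and 2 higher in window 1131 to 1230. In window 131 to 230, 26 were higher and 17 lower, and in window 1331 to 1430 4 were higher and 40 lower. Nucleotide 929, an A, rose at each step. Its level was 192, 128 and 160 RPM in early log, 327, 445 and 609 RPM in mid log and 1208, 1672 and 1853 RPM in late log, with no overlap between subphases, and it was the highest interior position of late log replicates 2 and 3. The change was 1.49 ± 0.26 to mid log, 1.80 ± 0.24 from mid to late log and 3.29 ± 0.23 over both (SE; limma, adjusted p = 0.0121, 0.000503 and 2.68e-05). Its 3′ neighbour, nucleotide 930, went from 431, 219 and 402 RPM in early log to 158, 125 and 135 RPM in mid log and 407, 496 and 497 RPM in late log. Nucleotide 931 was a peak in all libraries and highest in early log replicate 1, with 1559 RPM there against 684 to 1032 RPM in the rest. The same 3 nt thus carried ends whose order of height changed between subphases.

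Nucleotides 904 and 905 lay 24 to 25 nt before 929 and also rose from early to late log. Nucleotide 904, a G, had 226, 130 and 285 RPM in early log, 365, 591 and 679 RPM in mid log and 994, 1061 and 1279 RPM in late log, a change of 2.44 ± 0.27 from early to late log (SE; limma, adjusted p = 0.000156). Nucleotide 905, an A, changed by 1.61 ± 0.28 (adjusted p = 0.0015). From mid to late log nucleotide 905 did not pass, at 0.21 ± 0.17 (SE; limma, adjusted p = 0.372), and the libraries overlapped. Nucleotide 663, a U in a run of U, rose from 41.6, 50.7 and 25.7 RPM in early log to 240, 337 and 287 RPM in late log, by 2.88 ± 0.26 (adjusted p = 5.74e-05). In early log replicate 3 this position held 9 reads. Nucleotide 69 was one of the 3 with the largest rise from mid to late log, by 1.75 ± 0.16 (adjusted p = 0.000137), from 146, 142 and 139 RPM to 364, 546 and 554 RPM.

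A pair of positions was high in mid log alone. Nucleotide 1273, a G, held 1670, 1445 and 1521 RPM in the mid log libraries, 239, 398 and 345 RPM in early log and 283, 255 and 197 RPM in late log. It rose by 2.26 ± 0.23 from early to mid log and changed by -2.67 ± 0.15 from mid to late log (SE; limma, adjusted p = 0.00743 and 3.55e-05). Nucleotide 1067, a C, held 888, 707 and 709 RPM in mid log, 60.3, 165 and 180 RPM in early log and 89.8, 98.2 and 84.7 RPM in late log, with changes of 2.64 ± 0.38 and -3.06 ± 0.12 (adjusted p = 0.00933 and 3.11e-06). The rise at 1273 stood alone among its neighbours in the single-nucleotide profile. All mid log libraries were on 1 run of their own, so subphase and run cannot be told apart for both.

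Falls were led by positions in 1194 to 1199 and by nucleotides 421 and 500. Nucleotide 1199, a G, had 381, 463 and 556 RPM in early log, 238, 52.1 and 34.4 RPM in mid log and 58.5, 38.9 and 34.7 RPM in late log, a change of -3.40 ± 0.23 from early to late log (SE; limma, adjusted p = 2.68e-05). Mid log replicate 1 lay between the early log libraries and the rest. Nucleotide 1197, a C, was far lower, with 41.6, 44.9 and 34.2 RPM in early log and 3.17, 1.80 and 4.62 RPM in late log, a change of -3.35 ± 0.40 (adjusted p = 0.000219). Its late log values rested on few reads, 3 in late log replicate 2. Nucleotide 421, an A, had 309, 199 and 154 RPM in early log, 87.4, 78.8 and 79.8 RPM in mid log and 21.8, 24.0 and 21.6 RPM in late log, and fell at each step, with a change of -3.18 ± 0.27 in all (adjusted p = 4.08e-05). Nucleotide 1194 fell from 307, 88.0 and 84.8 RPM in mid log to 12.7, 16.2 and 10.01 RPM in late log, a change of -3.28 ± 0.45 (adjusted p = 0.000609), with mid log replicate 1 again apart. Nucleotide 500, a C, fell from 83.3, 68.7 and 73.1 RPM in mid log to 17.2, 9.58 and 6.16 RPM in late log, a change of -2.77 ± 0.33 (adjusted p = 0.000348). Its early log values of 32.0, 62.1 and 17.1 RPM, the last from 6 reads, overlapped those of late log. The leading falls from early to mid log, at nucleotides 532 and 151, had a wide spread among the early log libraries, 175 to 1248 RPM and 129 to 393 RPM.

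**Figure D4:**
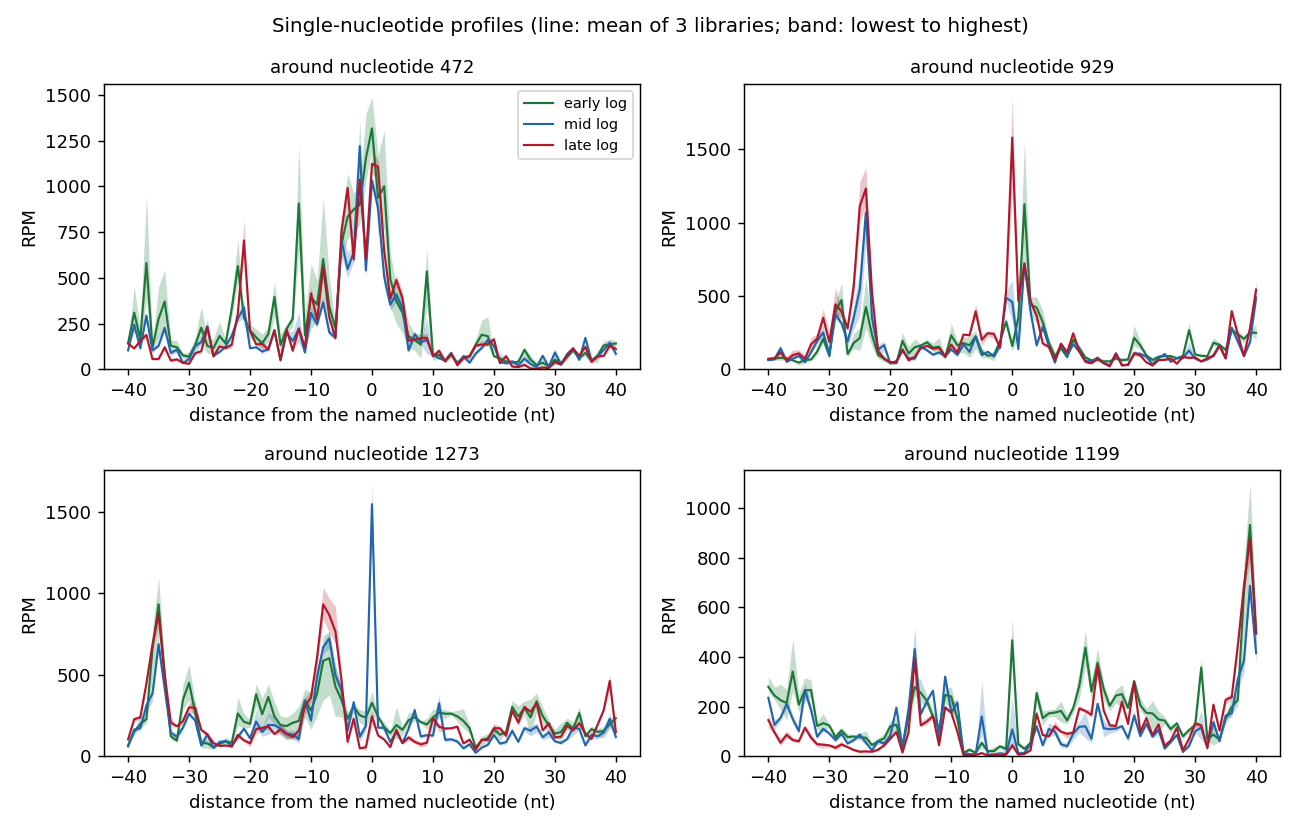
RPM at each nucleotide from 40 nt before to 40 nt after nucleotides 472, 929, 1273 and 1199, as the mean of the 3 libraries of a subphase (line) with their lowest and highest value (band). The rise at 1273 in mid log is 1 nt wide, whereas the maximum at 472 is a group of high positions shared by all subphases.

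The 10 highest positions differed in how far their level changed between subphases. None was called lower in any pair. From early to late log 5 were called higher, beside 7.93% of interior positions, from mid to late log 2, beside 19.0%, and from early to mid log 1, beside 3.74%. Since they were chosen by their level in the same libraries, these counts are a description. Nucleotide 472, a U, was highest by the mean of all libraries and did not pass the test in any pair. It held 1197, 1268 and 1488 RPM in early log, 1049, 1054 and 992 RPM in mid log and 1194, 1070 and 1109 RPM in late log. Nucleotide 601, an A, ranged over 745 to 949 RPM, and its changes were -0.08 ± 0.20, 0.08 ± 0.13 and 0.01 ± 0.20 (SE). Nucleotide 852, a C, held 358, 821 and 789 RPM in early log and 1312, 1377 and 1428 RPM in late log, a rise of 1.16 ± 0.31 (SE; limma, adjusted p = 0.0119). Early log replicate 1 had the lowest value of all libraries there and at 791, where the rise was 0.91 ± 0.32 (adjusted p = 0.0386).

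Peaks were defined in each library as the top 2.5% of interior positions, 44 positions. They held a growing share of the interior reads. The share was 12.1%, 11.2% and 12.4% in the early log libraries, 12.7%, 12.8% and 13.5% in mid log, and 14.3%, 15.01% and 15.1% in late log, with no overlap between subphases. The subphases differed (exact permutation test of F, p = 0.00357, the smallest the design allows, adjusted p = 0.0179). The lowest of the 44 peaks stood 3.92 to 4.62 times over the median interior position in early log, 4.76 to 4.98 times in mid log and 6.35 to 6.68 times in late log. The median itself was 133 ± 9.51 RPM in early log, 108 ± 5.45 in mid and 98.5 ± 0.333 in late log, and the 5th percentile was 32.1 ± 5.99, 23.7 ± 3.63 and 16.5 ± 0.595 RPM. The 95th percentile, at 459 ± 24.8, 413 ± 10.7 and 465 ± 24.7 RPM, did not follow that order. These levels are given as a description of the spread of values within a library.

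In all, 101 positions were a peak in at least 1 library, and 9 were a peak in all 9. These were nucleotides 145, 467, 470, 472, 473, 599, 601, 931 and 1238. Peaks shared by the 3 libraries of a subphase numbered 23 in early log, 33 in mid and 35 in late log, 56 positions together. On average 64.4% of peaks were shared by 2 early log libraries, 81.8% by 2 mid log libraries and 85.6% by 2 late log libraries, while 51.5% were shared between an early and a mid log library, 45.2% between early and late log, and 66.9% between mid and late log. Spearman's rho over the 1740 positions ran the same way, at 0.837 to 0.923 within early log, 0.945 to 0.988 within mid log, 0.979 to 0.983 within late log and 0.726 to 0.852 between early and late log. Depth was lowest in an early log library. The early log libraries were also split between sequencing runs, whereas those of mid log shared a run, as did those of late log. The part of depth and of run in these figures was not tested.

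The 56 shared peaks fell into 27 groups when neighbours within 10 nt were joined, 13 of them single positions. Only 2 groups had 5 or more peaks. The larger, nucleotides 460 to 474, had 9 peaks and held 3.48% ± 0.608 of the interior reads in early log, 3.02% ± 0.179 in mid and 3.41% ± 0.223 in late log. The other, nucleotides 138 to 145, had 6 peaks and held 1.42% ± 0.292, 1.81% ± 0.153 and 2.45% ± 0.193 (SD, n = 3). Its late log libraries also included the shared late log peaks at 142 and 143, in the window that rose from mid to late log. None of the 56 lay in the last 4 windows, where 2 positions were a peak in some library. That part held the lowest stretches instead. Over any 10 nt, the lowest mean was in nucleotides 1702 to 1711, at 26.6 ± 6.38, 15.8 ± 3.66 and 14.5 ± 1.26 RPM in early, mid and late log, followed by 1372 to 1381 and 1504 to 1513.

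Each subphase had 4 peaks of its own, present in its 3 libraries and in none of the other 6. They were chosen by their levels, which are given as a description. For early log they were 460, 538, 554 and 600. Nucleotide 460 held 655, 839 and 1226 RPM in early log, and at most 311 RPM in any later library. Nucleotide 554 was less distinct, with 566 to 761 RPM in early log and 595 to 633 RPM in late log. For mid log they were 39, 579, 1067 and 1273, and for late log 142, 143, 753 and 1321. Nucleotide 753 held 633, 768 and 845 RPM in late log, where the other 6 libraries had 325 to 396 RPM, and nucleotide 142 held 783, 1009 and 906 RPM, where they had 299 to 456 RPM.

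**Figure D5:**
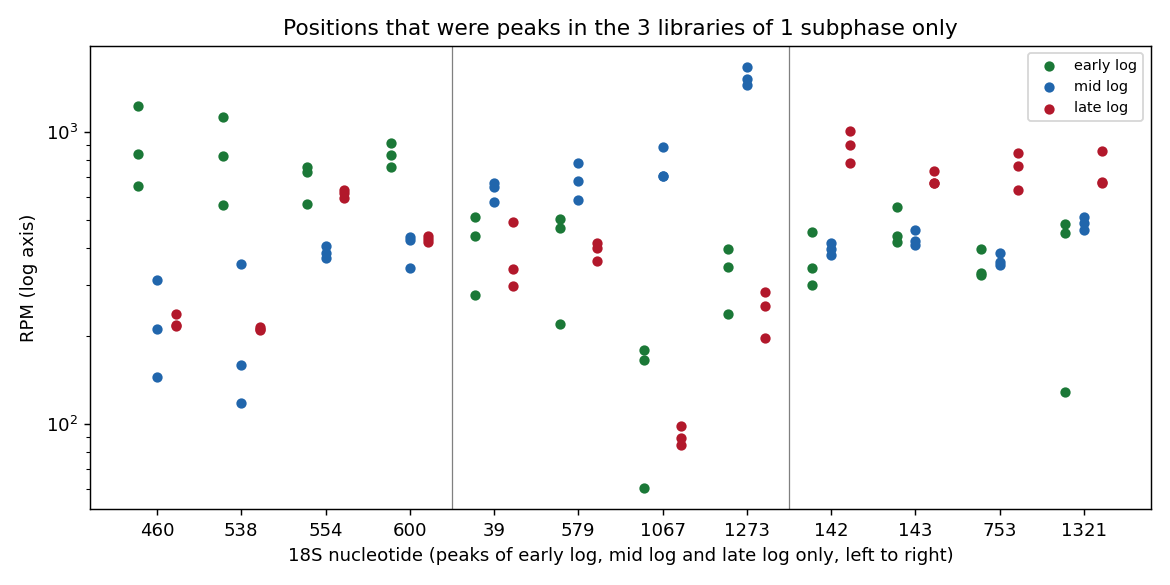
RPM on a log axis, in each of the 9 libraries, of the 12 positions that were a peak in the 3 libraries of 1 subphase only, 4 each for early, mid and late log from left to right. Nucleotides 1067 and 1273 stand furthest apart, and at nucleotide 554 the late log values of 595 to 633 RPM lie within the early log range.

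The base read as the RNA 3′ end was most often A at the peaks. A made up 62.1% ± 3.47 of peaks in early log, 53.8% ± 3.47 in mid and 58.3% ± 2.62 in late log (SD, n = 3), against 27.0% of all interior positions. G was below its 25.5% of positions in every subphase, with 12.9% ± 4.73, 15.2% ± 1.31 and 18.9% ± 2.62. The share of G did not pass the test among subphases (exact permutation test of F, p = 0.196, 0.262 after adjustment over the 4 bases), and A, C and U did not either, with adjusted p of 0.114, 0.114 and 0.807. The G counts of the early log libraries were spread, at 9.09%, 11.4% and 18.2% of peaks. Without early log replicate 3, the shallowest library, the exact permutation p for G was 0.0143. Where peaks were taken by their height over the local median, G was at 15.2% in early log and 12.1% in mid and late log, the opposite order.

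Over all reads of the interior, the last base moved between subphases. Reads that ended in A were 35.9% ± 0.777 in early log, 34.1% ± 0.600 in mid and 37.7% ± 0.792 in late log (exact permutation test of F, p = 0.00357, 0.0143 after adjustment over 4 bases). Reads that ended in C were 16.9% ± 2.27, 19.7% ± 0.938 and 14.4% ± 0.397 (exact permutation p = 0.0179, adjusted p = 0.0357). G and U did not pass, at adjusted p of 0.225 and 0.0571. The early log libraries were spread, with 19.3%, 16.5% and 14.8% of ends at C, and the last of these lay level with the highest of the late log libraries, which had 14.1% to 14.8%. Early log replicate 1, on the run of the late log libraries, was the highest of the early log libraries. From mid to late log, 201 of 336 C positions were called lower and 17 higher, 59.8% and 5.06%, beside 26.4% and 19.0% of all interior positions. At A 16.0% were lower and 27.3% higher, at G 18.5% and 23.0%, and at U 20.5% and 17.1%. The median change was -0.60 at C, 0.08 at A, 0.04 at G and -0.02 at U. From early to mid log, C had the smallest median fall, -0.03, beside -0.45 at A, -0.44 at G and -0.33 at U.

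The bases after the peaks were poor in C. Among the 56 shared peaks, A stood at 46.4%, 46.4%, 44.6% and 44.6% of the 4 nucleotides that follow the end, and C at 7.14%, 5.36%, 3.57% and 7.14%, beside 27.0% and 19.3% to 19.4% for the same offsets from all interior positions. Over the 5 nucleotides after the end A reached 43.6% and C 8.57%, whereas over the 5 before it they were 25.7% and 15.7%. Directly before the end U was most frequent, at 39.3%. These shares describe 56 positions, of which many lie within 10 nt of another, and no test is given.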

How the data were processed

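NET-seq values came from 9 libraries, grouped by their titles. Duplicate reads were collapsed by the authors with Fqtrim, linkers trimmed with cutadapt 3.4, reads aligned to R64 with STAR 2.7.3a and the 5′ ends of reads, which mark RNA 3′ ends, counted with bedtools 2.28.0. The deposited values are RPM, scaled by the authors so that positions 1 to 6739 of the repeat sum to 1000000 in each library. They carry no total per cell. Each library occurs in 2 of the 3 deposited tables with the same values. The authors' columns of means, ratios, confidence limits, variation and p-values for each pair were not used.

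Dividing by the smallest value above 0 gave whole reads, within 0.01, at 99.9% to 100% of positions. An edgeR 4.0.16 quasi-likelihood fit on these reads called 398, 773 and 886 interior positions, beside 410, 790 and 846 with limma 3.58.1 (R 4.3.3), the latter on log2(RPM + 1) over every position whose mean in the 6 libraries of a pair reached 1 RPM, with Benjamini-Hochberg adjustment at 0.05. Fold changes on that scale understate changes of low positions. Windows of 100 nt were fitted likewise over all regions, with a last piece under 50 nt joined to its neighbour, and library values (share, ratio, slope, peak share, bases) were tested with exact permutation tests. The main fits used only the 6 libraries of a pair, and 1 fit of all 9 was an alternative. P-values set the difference between subphases against the spread between these replicates. For mid log and for late log that spread lies within 1 sequencing run, so it holds no variation between runs.

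Windows named are the 3 highest and 3 lowest and, per pair, the 2 in each direction with the smallest adjusted p among those called. Positions named are the 10 highest and, per pair, the 3 with the largest change in each direction among called positions at a mean of 10 RPM or more in 1 of the subphases and no overlap of libraries. Other positions were named after their values were seen. The region, the lists and the tests were chosen with earlier results of these data known.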

Additional observations from a re-analysis of the deposited data

How the results depend on the processing

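Of the 5 measures taken per library, the slope and the share of reads in peaks kept their side of the threshold under every alternative run, at p of 0.00357 to 0.0464 for the slope (the highest over the first 13 windows, an alternative added after the data were seen) and 0.00357 to 0.0278 for the peak share. The share of the interior reversed its direction over spacer reads, where the exact permutation p of F among the 3 subphases was 0.0429. It gave 0.0179 to 0.0714 when single libraries were left out. The ratio to 25S gave 0.025 to 0.0821 on the same exclusions. The share of G at peaks reversed with peaks taken over the local median, exact p = 0.643, and gave 0.0143 to 0.321 on exclusions. The cause of these differences was not tested. For early to mid log, called windows went from 7 to 3 when scaled to the interior sum and to 3 with the median log ratio set to 0, and to 0 to 8 on exclusions, while called positions went from 410 to 642 with all 9 libraries in 1 fit and to 0 to 555 on exclusions. For mid to late log, 790 positions became 498 with all libraries in 1 fit, with 568 to 874 on exclusions, and 5 windows became 3 to 5. For early to late log, exclusions gave 550 to 1056 positions (550 without late log replicate 3, 846 in all) and 8 to 11 windows.

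Replicate numbers are shared by the subphases, and the few correlations below cannot tell whether these numbers pair the libraries. Deviations from the group means of same-numbered libraries correlated at -0.27, 0.03 and -0.25 between early and mid, 0.07, -0.06 and 0.23 between mid and late, and 0.17, 0.12 and -0.04 between early and late log. With the replicate block, p was 0.0556 for the share and 0.167 for the ratio by permutation within replicate numbers, and early to mid log gave 0 windows in limma (8 at an unadjusted p under 0.05) and 119 positions. No other count or call moved past its limit under the block.

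Depth limits early log replicate 3 most. A count of 3 reads is worth 8.55 RPM in that library and 0.411 RPM in the deepest. All p-values rest on 3 libraries per subphase, and the part of mature 18S fragments in any value was not tested.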
